A study of Mus musculus with 31 samples.

Results

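The immediate early genes described here are the 10 genes Fos, Fosb, Junb, Egr1, Egr2, Egr4, Arc, Npas4, Nr4a1 and Ier2. They were chosen by name as genes of this class, found through the Ensembl identifiers of the count tables among 48709 genes, and all 10 passed the filter on low counts that 17428 genes passed. RNA from the basolateral amygdala (BLA) of 31 mice was sequenced by QuantSeq, which reads a tag near the 3′ end of each transcript. Of these, 15 carried the CYFIP1 OE genotype, a human CYFIP1 bacterial artificial chromosome delivered by pronuclear injection on the C57BL/6N background, and 16 were WT. No Cre or cell type restriction of the transgene is given. Animals came from the line labelled 1 (WT n = 8, CYFIP1 OE n = 7) or the line labelled 3 (n = 8 per genotype), each bred from transgenic founders. Both sexes were present in all 4 combinations of line and genotype. WT mice were aged 58 to 61 days and CYFIP1 OE mice 58 to 77 days. The 4 mice aged 77 days were all CYFIP1 OE mice of the line labelled 1, so that age and genotype cannot be told apart among them. Left and right BLA of a mouse were pooled, and no treatment or task before dissection is given in the labels. Per the study's methods, isoflurane was given before decapitation and some animals whose RNA or protein was measured had gone through behavioural tests, but which of the 31 mice these were is not given in the sources used here. The study's text calls its lines 1 and 2, and the numbers 1 and 3 used here are those of the labels. The question was whether these genes, whose RNA follows recent neuronal activity, differed between CYFIP1 OE and WT mice in either line, and how far they rose and fell together between mice.

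Immediate early genes are switched on within minutes of calcium entry or growth factor signalling, with no need for new protein. Kinase cascades act on the transcription factors CREB, SRF with its Elk partners, and MEF2, which already sit at these genes. Their RNA is short-lived, so its level in a dissected brain region reflects the activity, handling and arousal of the animal in the period before death. In the amygdala they are widely used to mark neurons engaged during fear learning. Fos, Fosb and Junb encode subunits of the AP-1 transcription factor, in which a Fos protein pairs with a Jun protein. Egr1, Egr2 and Egr4 encode zinc finger transcription factors that bind GC-rich sites. Nr4a1 encodes an orphan nuclear receptor, Npas4 a basic helix-loop-helix factor that responds selectively to calcium and controls inhibitory synapse genes, and Ier2 a small nuclear protein. Arc differs from the rest in that its product acts at synapses, where it promotes removal of AMPA receptors.

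RefSeq promoter windows of GRCm38.p6 were at hand for 7 of the 10 genes. The stretches below are shown because they carry the letters through which the kinase-activated factors are known to act, and because these 5 genes recur in the results below. Each is the 250 bases upstream of a RefSeq transcription start, 5′ to 3′ on the strand of the gene, and overlaps no exon annotated by GENCODE. Capitals mark TGACG or its complement CGTCA (the core of the cAMP response element bound by CREB), TATAAA or its complement, and the CArG box bound by SRF. The Fos stretch is chr12:85473640-85473889 on the plus strand, Junb chr8:84978749-84978998 on the minus strand, Egr2 chr10:67537619-67537868 on the plus strand, Egr4 chr6:85513590-85513839 on the minus strand and Nr4a1 chr15:101266596-101266845 on the plus strand.
Fos: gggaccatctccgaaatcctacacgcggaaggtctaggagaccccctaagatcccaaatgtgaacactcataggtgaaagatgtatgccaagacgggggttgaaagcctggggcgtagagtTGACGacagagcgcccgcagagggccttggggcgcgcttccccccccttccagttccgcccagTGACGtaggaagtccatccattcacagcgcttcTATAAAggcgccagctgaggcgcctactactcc
Junb: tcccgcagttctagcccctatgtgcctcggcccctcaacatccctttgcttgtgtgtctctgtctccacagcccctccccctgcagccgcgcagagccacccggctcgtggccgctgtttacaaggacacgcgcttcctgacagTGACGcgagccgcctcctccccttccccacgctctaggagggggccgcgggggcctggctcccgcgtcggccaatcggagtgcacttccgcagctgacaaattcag
Egr2: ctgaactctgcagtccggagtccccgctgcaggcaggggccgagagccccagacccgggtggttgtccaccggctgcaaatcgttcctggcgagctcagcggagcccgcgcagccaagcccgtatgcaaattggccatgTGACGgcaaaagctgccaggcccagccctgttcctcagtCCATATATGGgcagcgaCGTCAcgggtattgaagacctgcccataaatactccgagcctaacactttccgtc
Egr4: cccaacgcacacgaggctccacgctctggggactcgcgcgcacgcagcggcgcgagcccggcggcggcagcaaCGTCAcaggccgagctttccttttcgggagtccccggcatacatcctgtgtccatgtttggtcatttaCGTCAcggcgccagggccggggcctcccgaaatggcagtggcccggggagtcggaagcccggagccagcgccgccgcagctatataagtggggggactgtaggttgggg
Nr4a1: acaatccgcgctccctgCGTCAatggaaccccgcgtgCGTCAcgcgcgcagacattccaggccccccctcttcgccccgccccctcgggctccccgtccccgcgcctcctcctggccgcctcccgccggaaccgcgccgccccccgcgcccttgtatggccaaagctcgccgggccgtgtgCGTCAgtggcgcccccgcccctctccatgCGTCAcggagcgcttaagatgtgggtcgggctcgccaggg
TGACG or CGTCA was found upstream of a start in 7 of the 7 genes with a window, counting any window of a gene, against 19.8% of all 27025 symbols. In Fos the letters stood 129 and 66 bases before the start, with TATAAA 33 bases before it. Nr4a1 held 4 matches, Egr4, Npas4 and the Egr2 window shown held 2 each, and Junb and Fosb held 1. TATAAA or its complement was found upstream of the start in 12.4% of all 32851 windows. A CArG box was found in the Egr2 window alone among the stretches shown, against 1.47% of all windows. The full element TGACGTCA was found in no member window, against 1.55% of all windows. These matches describe letters in the windows, and no binding was measured.

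The 10 genes lie on 8 chromosomes of GRCm38 and each is protein-coding. Fos is at chr12:85473890-85477273, Fosb at chr7:19302696-19310051, Junb at chr8:84974484-84978718 and Ier2 at chr8:84661331-84662852. Egr1 is at chr18:34859823-34864984, Egr2 at chr10:67535475-67542188 and Egr4 at chr6:85511121-85513589. Arc is at chr15:74669083-74672570, Nr4a1 at chr15:101254269-101274795 and Npas4 at chr19:4984355-4990316. Junb was the only member whose gene span overlaps another gene, Prdx2 on the opposite strand, which was also counted, so a Junb read count could hold Prdx2 reads if strand was not used in the authors' counting.

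The 31 libraries held 5286708 to 8685308 counts, with a median of 7387585. The mouse CYFIP1 OE 1, of the line labelled 3, stood apart from the rest. Its standardized connectivity, which measures how well a mouse's expression correlates with all the others, had a Z-score of -4.74, and the next lowest was -1.18. The dissected tissue also varied between mice. Summed CPM (reads of a gene relative to a library size scaled with TMM factors) of 10 striatal projection neuron markers ranged from 269 to 6292 across mice and exceeded the sum of 7 cortical and basolateral excitatory neuron markers, which ranged from 49.3 to 1894, in 28 of 31 mice. Markers of cortical and basolateral excitatory neurons were thus detected in every mouse, beside striatal markers in amounts that differed widely. Their list does not tell basolateral from cortical neurons. The ratio of the striatal to the cortical and basolateral sum ran from 0.16 to 79.5, with a median of 5.09. The tables count mouse genes, so the human transgene was not measured, and mouse Cyfip1, at 23.4 to 39.6 CPM over all mice, had a log2 fold change of -0.02 (SE 0.08) between genotypes and does not check the labels. In bulk tissue of this kind, fewer cells of a type and less RNA per cell cannot be told apart.

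The mean level of the 10 genes differed widely. Because QuantSeq counts tags at the 3′ end, CPM were compared between genes without division by length. Egr1 was the most abundant, at 242 ± 75.8 CPM (mean ± SD over 31 mice), followed by Egr4 at 56.6 ± 13.9 and Arc at 28.6 ± 9.05. Junb had 23.6 ± 6.26 CPM, Nr4a1 16.0 ± 6.14 and Npas4 7.93 ± 3.34. Fosb, at 6.77 ± 2.64, and Fos, at 6.68 ± 3.23, were near each other, and Egr2, at 5.13 ± 2.39, and Ier2, at 1.99 ± 1.27, were the lowest. Egr1 exceeded Egr4 and Egr4 exceeded Arc in 31 of 31 mice, so the top of this order held in every animal. Neighbours further down were often reversed. Arc exceeded Junb in 24 of 31 mice, Npas4 exceeded Fosb in 22, Fos exceeded Egr2 in 20, and Fosb exceeded Fos in 17, a difference of 0.08 ± 0.64 (mean ± SD of the paired log2 difference). Junb over Nr4a1, Nr4a1 over Npas4 and Egr2 over Ier2 held in 28 mice each.

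**Figure D1:**
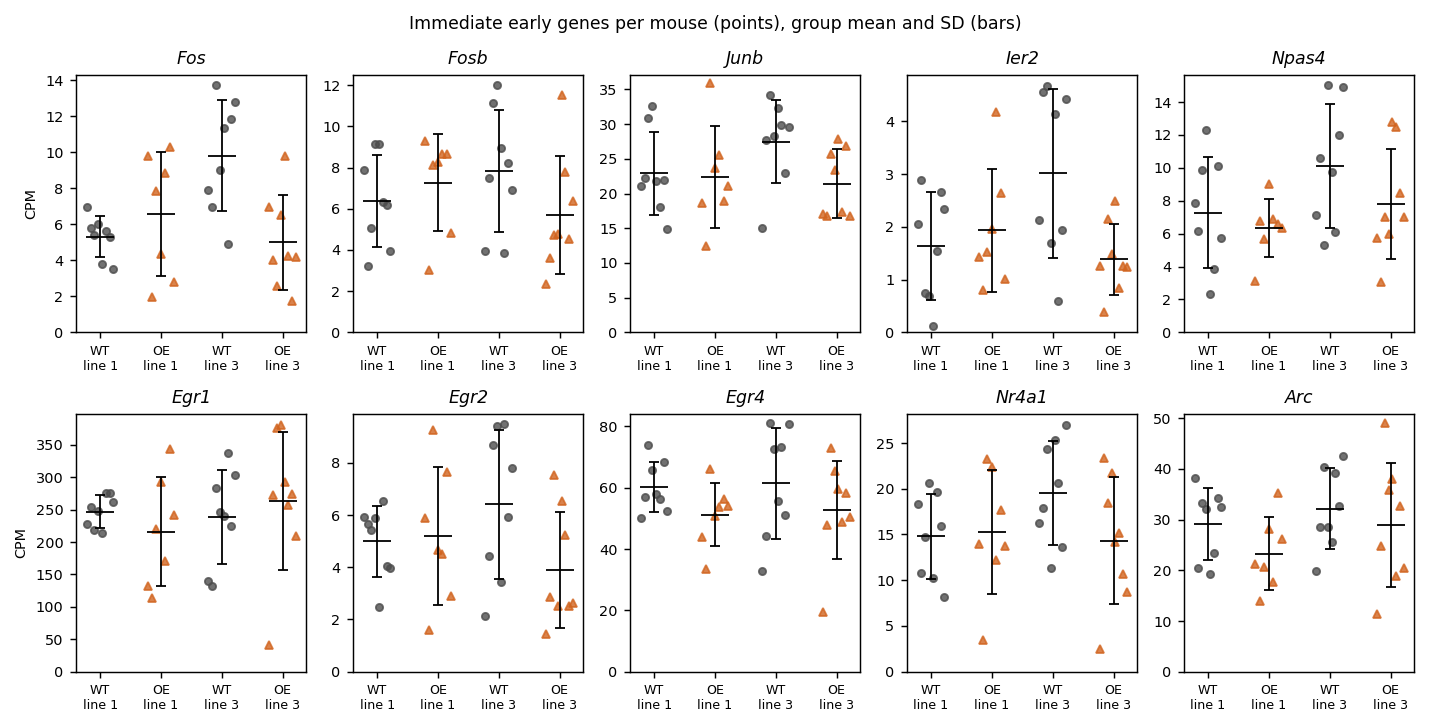
CPM of each of the 10 immediate early genes in every mouse (y axis, linear from 0) by genotype and line (x axis), with group mean and SD as bars; circles are WT and triangles CYFIP1 OE mice. Mean Fos was 9.82 CPM in WT and 5.01 CPM in CYFIP1 OE mice of the line labelled 3, with overlapping ranges, and 1 CYFIP1 OE mouse had 41.6 CPM of Egr1.

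How much each gene varied between mice differed from gene to gene. Ier2 ranged from 0.13 to 4.66 CPM, but these values rest on 1 to 45 reads per mouse, and counting error alone gives a coefficient of variation of 25.7% at its mean of 15.2 reads, against 63.9% measured. Fos ranged 7.96-fold, from 1.72 to 13.7 CPM with a median of 6.01, on 11 to 106 reads, with a coefficient of variation of 48.4% against 14.1% from counting. Egr2 ranged from 1.43 to 9.48 CPM, Npas4 from 2.34 to 15.0 and Fosb from 2.33 to 12.03. Egr1 ranged 9.16-fold, from 41.6 to 381 CPM with a median of 248, where counting error is only 2.37%. The lowest Egr1 value belonged to CYFIP1 OE 1, and the next lowest was 114 CPM. Nr4a1 ranged 10.8-fold, from 2.51 to 26.97 CPM with a median of 15.9. Egr4 ranged from 19.5 to 81.0 CPM, Arc from 11.5 to 49.0 and Junb from 12.5 to 36.0, and Egr4 had the lowest coefficient of variation of the group at 24.6%.

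The SD of log2 CPM over mice was 0.74 for Nr4a1, 0.73 for Fos and 0.62 for Egr1, with a median of 0.63 over the 10 genes against 0.52 over all genes tested, and 7 of the 10 lay above that median. Because low counts inflate this measure, each gene was also set beside the genes within 0.5 log2 units of its mean level. Nr4a1 was more variable than 95.4% of such genes, Egr1 than 91.3%, Arc than 87.6%, Fos than 83.7% and Egr4 than 81.5%. Npas4 exceeded 78.4%, Egr2 70.8%, Junb 68.0%, Fosb 64.2% and Ier2 50.4% of genes of like abundance. The abundant Egr1, Egr4 and Arc thus varied more than most genes of their level, and Ier2 varied as a typical gene of its level does.

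The low end of these ranges came from few animals. Of the 10 lowest values, 8 belonged to CYFIP1 OE mice and 2 to a WT mouse. CYFIP1 OE 1 had the lowest value of all mice in 6 of the 10 genes, namely Fosb, Egr1, Egr2, Egr4, Arc and Nr4a1, but its 6.99 CPM of Fos lay above the median. CYFIP1 OE 4, a female of the line labelled 1 aged 77 days, was under the median in 10 of 10 genes, with 1.99 CPM of Fos, 114 of Egr1 and 3.45 of Nr4a1. CYFIP1 OE 9, also of the line labelled 1, was under the median in 10 of 10 as well, CYFIP1 OE 15 in 9 and CYFIP1 OE 3 in 8. At the other end, WT 16 of the line labelled 3 was under the median in 0 of 10 genes, and WT 3 of that line held the highest value of 3 genes, 13.7 CPM of Fos, 81.0 of Egr4 and 4.66 of Ier2. The lowest Npas4 and Ier2 values, 2.34 and 0.13 CPM, were those of WT 8 of the line labelled 1, which was under the median in 8 of 10 genes.

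**Figure D2:**
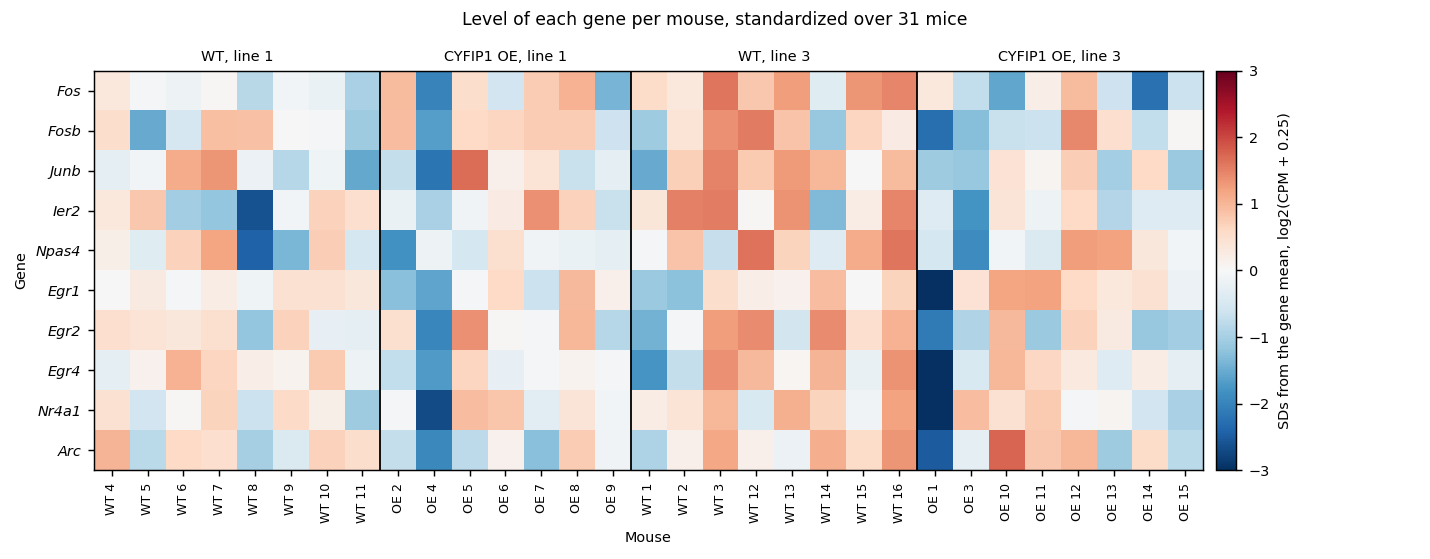
Level of each gene (rows) in each mouse (columns, grouped by genotype and line; OE stands for CYFIP1 OE), as the number of SDs from the mean of the gene over 31 mice on log2(CPM + 0.25). CYFIP1 OE 1 and CYFIP1 OE 4 show low values across most genes, and CYFIP1 OE 1 has a Fos value near the mean.

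How closely the genes followed each other from mouse to mouse depended on the pair. Pearson's r of log2 CPM over 31 mice was positive in 44 of 45 pairs, with a median of 0.39 and a range of -0.04 to 0.85. By permutation of mice, 22 of 45 pairs had an adjusted p under 0.05 (Benjamini-Hochberg over 45 pairs), and the weakest of these had an r of 0.41. Among all pairs of tested genes, 3.99% had an r at least that high. With Spearman's rho 18 pairs were called, and without CYFIP1 OE 1 Pearson's r called 19. Single mice carried part of this. Without the 2 mice farthest from the median of one gene of the pair, r was positive in 41 of 45 pairs and had a median of 0.28. Within groups, 15 pairs were called in line 3, 6 in line 1, 10 among CYFIP1 OE and 1 among WT animals, with median r of 0.46, 0.43, 0.48 and 0.32.

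The strongest pairs joined the EGR genes, Arc and Nr4a1. Egr1 and Egr4 had an r of 0.85 (permutation adjusted p = 0.00011, with p = 1e-05 as the smallest that 100000 permutations can give; rho 0.61, adjusted p = 0.0041), and r was 0.64 without the 2 farthest mice. Egr1 and Arc had an r of 0.76 (rho 0.71), which was 0.61 without the 2 farthest mice, and Egr4 and Arc an r of 0.75 (rho 0.65), which was 0.65 without them, each with a permutation adjusted p of 0.00011. These 3 pairs had an r of 0.52 to 0.91 in each line and of 0.66 to 0.71 without CYFIP1 OE 1. Egr1 and Nr4a1 had an r of 0.71 (rho 0.51, permutation adjusted p = 0.0013 and 0.015), and an r of 0.49 without CYFIP1 OE 1 (permutation adjusted p = 0.019), but r was 0.17 among WT animals and 0.28 once the 2 farthest were left out, so that its size depended on the lowest animals. Junb and Egr4 had an r of 0.68 and a rho of 0.75, and Egr2 and Egr4 an r of 0.70 and a rho of 0.59.

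Over all mice, the closest partners of Fos were other members. Its highest r was 0.55 with Ier2 (rho 0.58, permutation adjusted p = 0.0043 and 0.0065), and 0.55 with Fosb (rho 0.57, permutation adjusted p = 0.0043 and 0.0065), the AP-1 subunit most like it, with 0.56 and 0.48 without the 2 farthest mice, and 0.56 and 0.63 without CYFIP1 OE 1. Fos with Egr2 was also called, with an r of 0.46 (rho 0.46, permutation adjusted p = 0.019 and 0.031). That r was 0.84 within line 1, 0.29 within line 3 and 0.32 without the 2 farthest mice. With Egr1, the most abundant member, the r of Fos was -0.04 (rho -0.03, permutation adjusted p = 0.82 and 0.88), and with Arc it was 0.15. Npas4 stood furthest from the group, with a median r of 0.27 with the other members and 1 called pair, that with Ier2 (r 0.41), which was 0.11 without the 2 farthest mice. By Pearson's r, Egr2, Egr4 and Nr4a1 had the most called pairs, 7, 6 and 6 of 9, with median r of 0.56, 0.68 and 0.56. With rho, Nr4a1 with Egr4 (0.37, permutation adjusted p = 0.093) and with Fosb (0.23, 0.29) did not pass. Egr4 with Fosb (rho 0.24, permutation adjusted p = 0.28) did not pass either. Without the 2 farthest mice, the r of Nr4a1 was 0.34 with Arc and 0.54 with Egr4.

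**Figure D3:**
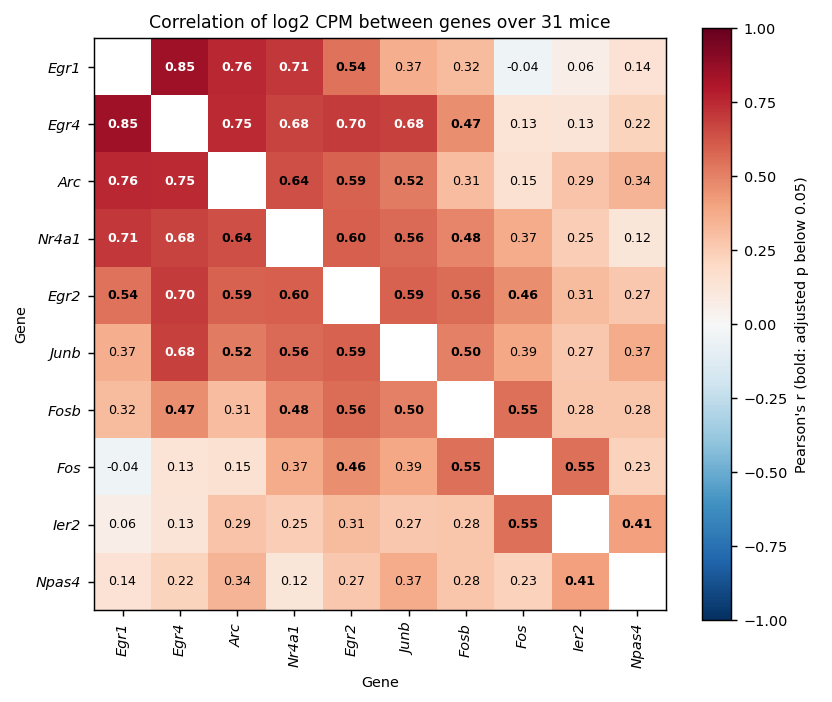
Pearson's r of log2 CPM for each pair of genes (rows and columns) over 31 mice, with colour and number giving r and bold type an adjusted permutation p below 0.05. Egr1, Egr4, Arc and Nr4a1 form a block with r of 0.64 to 0.85, and Fos has an r of -0.04 with Egr1 and 0.55 with Fosb and Ier2.

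Among the genes outside the group whose log2 CPM over 31 mice was most like the mean standardized level of the members, out of 10956 other genes with a mean of at least 5 CPM, were Trim9 (r 0.85), Zmynd11 (0.83), 1700113A16Rik (0.80), Msmo1 (0.76), 9330121K16Rik (0.76), Klf7 (0.76), Sirpa (0.74), Srcin1 (0.74) and Mapk9 (0.74). None is in the gene lists used here, and each is given as a description with no test. Trim9 encodes a brain ubiquitin ligase, Msmo1 a sterol synthesis enzyme and Mapk9 a Jun kinase. Within lines r was 0.56 to 0.89 for line 1 and 0.70 to 0.89 for line 3. The members' own r with this mean, which includes each of them, ran from 0.49 for Npas4 to 0.82 for Egr2.

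The cell mixture of the dissection moved with several members. Over 110 pairs of a member with the summed marker level of a cell type, 15 had an adjusted permutation p under 0.05 with Pearson's r and 9 with Spearman's rho. Egr1 rose with the striatal projection neuron sum (r 0.79, rho 0.58, permutation adjusted p = 0.0022 and 0.011), with an r of 0.65 without the 2 farthest mice, 0.52 within line 1 and 0.88 within line 3. Egr4 (r 0.62, rho 0.37, permutation adjusted p = 0.012 and 0.23) and Arc (r 0.50, rho 0.44, permutation adjusted p = 0.028 and 0.13) also had positive r with this sum, 0.40 and 0.47 without the 2 farthest mice, which did not pass with rho. Fos had the opposite sign with the same sum (r -0.42, rho -0.64, permutation adjusted p = 0.098 and 0.0081), with an r of -0.56 without the 2 farthest mice. It rose instead with the pan-neuronal sum (r 0.64, rho 0.65, permutation adjusted p = 0.0038 and 0.0071) and with the cortical and basolateral excitatory neuron sum (r 0.61, rho 0.64, permutation adjusted p = 0.0048 and 0.0071). Ier2 rose with the pan-neuronal sum (r 0.56, rho 0.60, permutation adjusted p = 0.012 and 0.0097). These 3 values were 0.66, 0.65 and 0.59 without the 2 farthest mice.

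Astrocyte and microglia sums moved the other way. With the oligodendrocyte sum 0 of 10 members passed, and r ran from -0.30 to 0.15. The astrocyte sum had an r of -0.72 with Egr4 (rho -0.52, permutation adjusted p = 0.0027 and 0.043) and -0.63 with Arc (rho -0.54, permutation adjusted p = 0.0038 and 0.032), or -0.50 and -0.46 without the 2 farthest mice. The microglia sum had an r of -0.57 with Fos (rho -0.61, permutation adjusted p = 0.012 and 0.0085) and -0.55 with Ier2 (rho -0.58, permutation adjusted p = 0.013 and 0.011), or -0.59 and -0.57 without the 2 farthest mice. For Fos the r with microglia was -0.92 within line 1 and -0.30 within line 3. The choroid plexus sum had an r of -0.50 with Egr4 (rho -0.48, permutation adjusted p = 0.023 and 0.071). CYFIP1 OE 1, with the lowest Egr1, had a striatal sum of 302 CPM against a median of 3376. Its cortical and basolateral excitatory neuron sum was the highest of all mice, 1894 CPM against a median of 517. It also had the highest astrocyte sum, 1123 CPM, and a choroid plexus sum of 4692 CPM against a median of 308. Its microglia sum and that of CYFIP1 OE 4 were the highest of their list, both at 343 CPM. WT 2, with a striatal sum of 269 CPM and a choroid plexus sum of 8314 CPM, had 132 CPM of Egr1. After linear removal of the striatal and pan-neuronal sums, chosen after seeing the data, 22 of 45 pairs of members were called, of which 20 were among the 22 called before. Fos with Ier2 (permutation adjusted p = 0.21) and Npas4 with Ier2 (0.14) no longer passed, and Fos with Nr4a1 (0.021) and Fosb with Egr1 (0.029) did. Egr1 and Egr4 then had an r of 0.64, Egr1 and Arc 0.47, Fos and Ier2 0.27, Fos and Egr2 0.57, and Fos and Egr1 0.28.

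**Figure D4:**
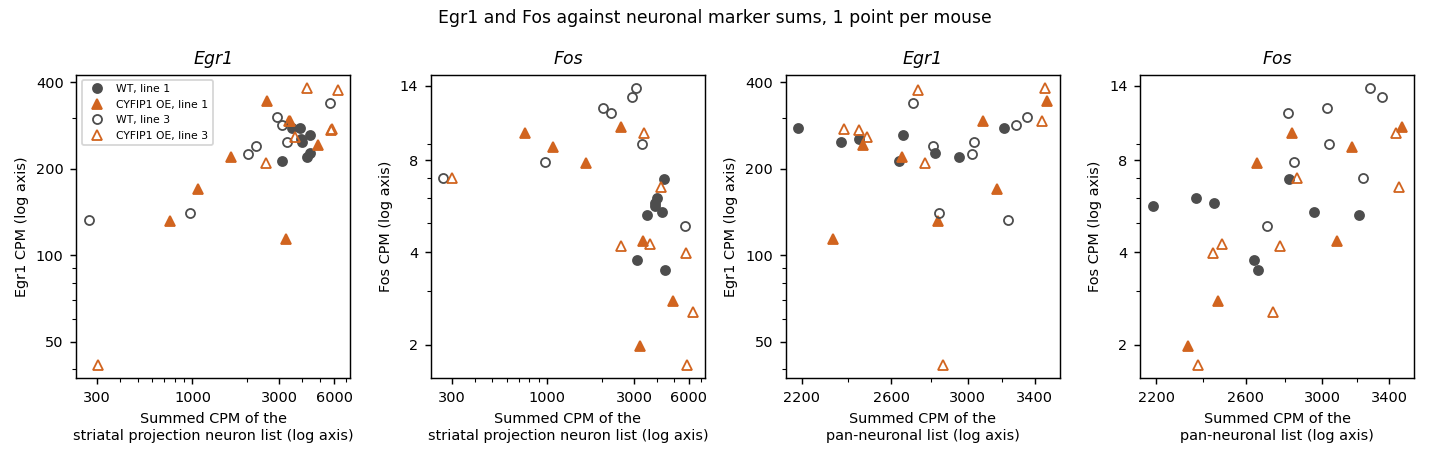
CPM of Egr1 and Fos (y axes, log) against the summed CPM of striatal projection neuron and pan-neuronal markers (x axes, log), with 1 point per mouse; circles are WT and triangles CYFIP1 OE mice, filled for the line labelled 1 and open for the line labelled 3. Egr1 rises with the striatal sum (r 0.79) and Fos with the pan-neuronal sum (r 0.64).

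Across both lines, all 10 genes had a lower estimate in CYFIP1 OE than in WT mice, and in this model none was called. The edgeR model had terms for sex, line and genotype, and a gene was called at an unadjusted p under 0.005. The log2 fold change of CYFIP1 OE over WT ran from -0.03 for Egr1 to -0.47 for Ier2, with a median of -0.24, whereas 51.3% of all genes had an estimate under 0 and the median over all genes was -0.01. The members co-vary between mice, so their directions are not independent of each other. Without CYFIP1 OE 1 the estimate of Egr1 was 0.05. Called were 0 of 10 members against 0.293% of all genes, and 0 of 10 had an unadjusted p under 0.05 against 4.3% of all genes. By DESeq2 the counts were also 0 and 0, whereas with 5 surrogate variables Arc was called (-0.34, edgeR p = 0.0013, adjusted p = 0.56). Egr4 came nearest, with 60.8 ± 13.6 CPM in WT and 52.1 ± 13.2 CPM in CYFIP1 OE animals (SD), a log2 fold change of -0.23 (SE 0.13, 95% confidence interval -0.50 to 0.04, edgeR p = 0.098, adjusted p = 1.00), and 12 of 15 CYFIP1 OE mice were under the WT mean. Arc was at 30.7 ± 7.47 CPM in WT and 26.3 ± 10.2 CPM in CYFIP1 OE animals. The intervals leave room for changes of either sign in each gene, and the widest, that of Ier2, ran from -1.19 to 0.26.

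Each line was then compared with its own WT mice. Estimates in the line labelled 1 were split, with 5 of 10 members lower in CYFIP1 OE mice against 49.6% of all genes, 0 of 10 called against 0.35% and 0 of 10 with an unadjusted p under 0.05 against 3.96%. They ran from -0.34 (SE 0.23) for Arc to 0.29 (SE 0.32) for Fos. The Arc estimate in this line was -0.034 with age as a covariate and -0.038 without the mice aged 77 days, and over both lines it was -0.12 in each of these fits. Fos ranged from 3.52 to 6.96 CPM with a median of 5.54 in the 8 WT mice and from 1.99 to 10.3 with a median of 7.85 in the 7 CYFIP1 OE mice. The CYFIP1 OE mice thus lay on both sides of the WT range, 2 below and 4 above it. Egr1 showed a like widening, with 247 ± 24.8 CPM in WT and 216 ± 84.4 in CYFIP1 OE mice (SD), where 3 CYFIP1 OE mice were below and 2 above all WT mice. Mouse names share prefixes, whose meaning the labels do not give. The 8 WT mice of this line include 7 with the same prefix, while all CYFIP1 OE mice of the line have other prefixes, so a difference in spread between genotypes cannot be told apart from one between prefixes. The log2 striatal sum, with which Egr1 rose, had an SD of 0.18 in WT and 0.98 in CYFIP1 OE mice of this line. For the cortical and basolateral sum, with which Fos rose, the SDs were 1.34 and 1.44. The mice aged 77 days were all among these CYFIP1 OE mice. The spread itself, and the part of dissection or age in it, was not tested.

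Within the line labelled 3, 9 of 10 members had a lower estimate in CYFIP1 OE mice, against 52.6% of all genes, and Fos alone was called (1 of 10, against 0.93% of all genes). Fos, in CPM, was lowest at 4.89, median 10.2 and highest 13.7 in the 8 WT mice, and lowest at 1.72, median 4.22 and highest 9.80 in the 8 CYFIP1 OE mice. All 8 CYFIP1 OE mice were under the WT mean and 5 of them under the lowest WT mouse, although the groups overlap, and without CYFIP1 OE 1 the log2 fold change was -1.00 (edgeR p = 0.0042). The means were 9.82 ± 3.10 and 5.01 ± 2.63 CPM (SD), and with CYFIP1 OE 1 kept the log2 fold change in this line was -0.94 (SE 0.31, 95% confidence interval -1.57 to -0.32, edgeR p = 0.0042, adjusted p = 0.51). After adjustment over all 17428 genes the difference did not pass, and no gene did in this comparison (0 at an adjusted p under 0.05 by edgeR, 1382 or 7.93% at an unadjusted p under 0.05).

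Ier2 was the other member with an unadjusted p under 0.05, making 2 of 10. It was lowest at 0.59, median 3.13 and highest 4.66 CPM in WT mice, and lowest at 0.38, median 1.25 and highest 2.49 in CYFIP1 OE mice. All 8 CYFIP1 OE mice were again under the WT mean but 1 was below the WT range, and the log2 fold change was -1.11 (SE 0.47, edgeR p = 0.024, adjusted p = 0.57). Egr2, at 6.42 ± 2.85 CPM in WT and 3.91 ± 2.22 CPM in CYFIP1 OE animals, had a log2 fold change of -0.69 (SE 0.35, edgeR p = 0.055), and Junb, at 27.5 ± 6.05 and 21.4 ± 4.96 CPM, one of -0.35 (SE 0.19, edgeR p = 0.068). Nr4a1 (-0.46, SE 0.31), Fosb (-0.43, SE 0.29), Npas4 (-0.37, SE 0.29), Egr4 (-0.22, SE 0.19) and Arc (-0.16, SE 0.22) had smaller ratios of estimate to error. Egr1 had the opposite sign, at 0.12 (SE 0.26), and 0.30 without CYFIP1 OE 1.

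**Figure D5:**
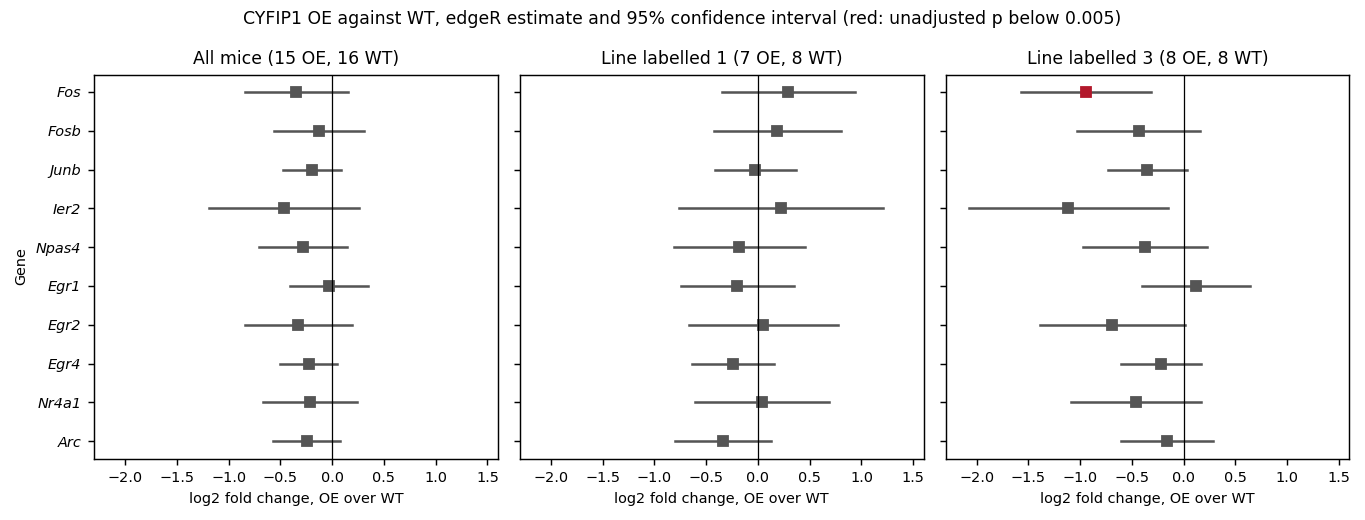
Log2 fold change of CYFIP1 OE over WT (x axis) for each gene (y axis) in all mice and in each line, with squares for the edgeR estimate and lines for its 95% confidence interval; red marks an unadjusted p below 0.005. Fos in the line labelled 3 is the single red square, at -0.94.

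The change in Fos differed between the lines by -1.24 on the log2 scale (SE 0.44, edgeR interaction p = 0.0083, adjusted p = 0.53), and that in Ier2 by -1.34 (SE 0.67, edgeR p = 0.056). For this interaction 0 of 10 members were called against 0.843% of all genes, and Fos was the 1 member with an unadjusted p under 0.05 against 8.1%. Mean Fos was 9.82 CPM in WT mice of line 3 and 5.31 in those of line 1, and 5.01 and 6.56 in their CYFIP1 OE mice, so the WT mice of the line labelled 3 stood highest of the 4 groups. Marker sums also differed between the groups. The mean log2 pan-neuronal sum was 11.56 in WT mice of the line labelled 3, 11.45 in its CYFIP1 OE mice, 11.47 in CYFIP1 OE mice of line 1 and 11.37 in its WT mice. The mean log2 cortical and basolateral sum, with which Fos rose, was 9.32 (WT) and 8.59 (CYFIP1 OE) for line 3, and 8.09 and 8.66 for line 1. The mean log2 microglia sum was 7.68 and 7.92 for line 3, and 7.85 and 7.78 for line 1. The mean log2 striatal sum was 10.92 (WT) and 11.60 (CYFIP1 OE) for line 3, and 11.94 (WT) and 11.04 (CYFIP1 OE) for line 1. None of the 7 pan-neuronal or the 10 striatal markers was at 0 in every mouse. The part of the cortical and basolateral and the microglia sums in the Fos result was not tested.

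With the pan-neuronal sum as a covariate, chosen after seeing the data, Fos in line 3 had a log2 fold change of -0.78 (edgeR p = 0.00501) and its difference between lines was -0.71 (edgeR p = 0.078). With the striatal sum as a covariate these were -0.88 (edgeR p = 0.0069) and -0.98 (edgeR p = 0.042). With 5 surrogate variables, Fos was at -0.63 (edgeR p = 0.025) in line 3 and at -0.34 in line 1, and the difference between lines was -0.29 (edgeR p = 0.46). These variables were estimated with sex, line and genotype protected, but not the interaction of line and genotype. They can absorb part of a difference between lines, so this fit cannot decide whether the lines differ. In the 5 prefixes that hold both genotypes, mean Fos was lower in the CYFIP1 OE mice in 4, which are those of the line labelled 3, and Egr4 and Arc were lower in 5. Ier2, Egr2, Junb and Npas4 were lower in 4, Egr1 and Fosb in 3 and Nr4a1 in 2. These counts are a description, since some of the means rest on 1 mouse and none was corrected for sex. In some of the prefixes the WT and the CYFIP1 OE mice were of opposite sex, so sex and genotype cannot be told apart there. With those 18 mice and prefix as a block, the log2 fold change over both lines was -0.75 for Fos (edgeR p = 0.079), -0.92 for Egr2 (edgeR p = 0.035) and -0.72 for Npas4 (edgeR p = 0.041). With the 16 mice of line 3 alone and prefix as a block, a fit added after seeing the data, Fos was at -0.96 (edgeR p = 0.019) and no longer called, Egr2 was at -1.09 (edgeR p = 0.016) and Egr1 turned to -0.29 (edgeR p = 0.36).

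With the filter on low counts no member was called for sex, line or name prefix. The log2 difference of females from males ran from -0.33 to 0.22 and 0 of 10 were called against 0.436% of all genes. That of the line labelled 3 from the line labelled 1 ran from -0.01 to 0.39, highest in Npas4 (edgeR p = 0.072), and 0 of 10 were called against 0.189%. For the name prefix terms 0 of 10 were called against 0.912%, with Egr1 nearest (edgeR p = 0.067). This depended on the filter, since without it Egr1 was called for name prefix (edgeR p = 5.62e-07, adjusted p = 3.89e-05), and by DESeq2 it had p = 0.020. The fit without a filter held 32936 genes. The share of them called is not given here, so whether that call is particular to Egr1 cannot be told. Differences between prefixes took 46.9% of the variance of Egr1 and 9.09% to 29.8% of that of the other members, against a median of 30.7% over all tested genes.

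Genes related to the members by family or pathway gave context for these values, in 4 lists of 80 genes of which 75 were tested. Of 10 other AP-1, EGR and NR4A family genes 6 were tested. Within the line labelled 3, 3 of the 6 had an unadjusted p under 0.05, against 7.93% of all genes, and were lower in CYFIP1 OE mice, with a median log2 fold change over the 6 of -0.55 against -0.02 over all genes. They were Nr4a3, a nuclear receptor close to Nr4a1 (-0.80, SE 0.33, edgeR p = 0.020, adjusted p = 0.55), Fosl2, a Fos relative (-0.53, SE 0.21, edgeR p = 0.015), and Jun, a partner of Fos (-0.56, SE 0.25, edgeR p = 0.030). In the line labelled 1, 1 of the 6 had an unadjusted p under 0.05, against 3.96% of all genes. It was Nr4a3, which was higher in CYFIP1 OE mice (0.71, SE 0.34, edgeR p = 0.044), and the estimate of Jun was 0.44 (SE 0.26, edgeR p = 0.094). The line difference was -1.50 for Nr4a3 (edgeR p = 0.0030), -1.01 for Jun (edgeR p = 0.0082) and -0.71 for Fosl2 (edgeR p = 0.022), each with an adjusted p of 0.53 to 0.56. Across both lines 0 of the 6 passed, with estimates from -0.35 for Nr4a2 to 0.12 for Jund.

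Among 31 other rapid-response genes tested, 1 was higher and 1 lower in CYFIP1 OE mice at an unadjusted p under 0.05 in each of 2 comparisons, near the 4.3% of all genes over both lines and below the 7.93% in line 3. Across both lines these were Klf4, a Krüppel-like factor (0.60, SE 0.28), and Mcl1, a survival factor of the BCL2 family (-0.20, SE 0.08). Within line 3 they were Sik1, a kinase that restrains CREB coactivators (0.53, SE 0.20), and Ccn1, a secreted matrix protein (-1.03, SE 0.50). Ccn1 had a mean of only 1.14 CPM over all mice. In the line labelled 1, 2 of the 31 passed this threshold, against 3.96% of all genes. They were Arl4d (-0.93, SE 0.46) and Ier5l (-0.58, SE 0.27), both lower in CYFIP1 OE mice, while Ptgs2, the inducible cyclooxygenase, had the highest estimate (0.94, SE 0.54). Zfp36, whose product destabilizes messenger RNA, had the highest estimate in the line labelled 3 (0.63, SE 0.47). Of 15 delayed activity-regulated genes, 0 passed in any of the 3 genotype comparisons. Bdnf, the neurotrophin that follows the early wave, had 1.03 (SE 0.59) in line 1 and -0.57 (SE 0.56) in line 3. The highest and lowest estimates of the list were otherwise those of Gpr3 (0.31, SE 0.43) and Pim1 (-0.34, SE 0.24) over both lines, Inhba (-0.63, SE 0.43) in line 1, and Inhba (0.76, SE 0.41) and Nptx1 (-0.59, SE 0.47) in line 3. Of 23 upstream regulators and partners, 1 had an unadjusted p under 0.05 in the line labelled 1, against 3.96% of all genes. In the line labelled 3 there were 2, against 7.93%, so both counts were near the share of all genes. Rps6ka5, a kinase that acts on CREB and histone H3, was lower in CYFIP1 OE mice of the line labelled 1 (-0.79, SE 0.28, edgeR p = 0.0084). Mef2d, a MEF2 factor (0.41, SE 0.19), and Mrtfb, a coactivator of SRF (0.27, SE 0.13), were higher in those of the line labelled 3. Map2k1, which activates ERK, had the lowest estimate there (-0.29, SE 0.23). The estimate of Creb1 ran from 0.02 to 0.16 over the 3 comparisons. With the mean of the 10 members, r was positive in 9 of the 15 delayed genes, 24 of the 31 other rapid-response genes, 4 of the 6 family genes and 15 of the 23 regulators, against 49.9% of all other tested genes.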

How the data were processed

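BLA RNA from 31 mice was sequenced by QuantSeq 3′ Fwd. The authors mapped reads with STAR to GRCm38, collected alignment statistics with Picard and MultiQC, and quantified genes with Salmon, and they deposited expected counts per gene and mouse, without normalization. Whether strand was used in counting is not given in the sources used here. Genes were named and placed with GENCODE vM21 of GRCm38. The members, gene lists and tests were chosen with earlier results of these data known.

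Estimated counts were rounded, and a gene was kept where 20% of mice or more had 10 or more reads. edgeR 4.0.16 in R 4.3.3 fitted TMM-normalized counts by quasi-likelihood, with sex, line and genotype, or with sex and 4 groups of line and genotype for each line and the interaction (two-sided F tests, Benjamini-Hochberg over all genes). A call was an unadjusted p under 0.005, the threshold of the study. The study used DESeq2 with 5 sequencing components, for which 5 surrogate variables from sva 3.50.0 stood in as an alternative, and removed mice with a connectivity Z-score under -2. Here that mouse was kept, and leaving it out was an alternative. Log2 CPM had a prior count of 2. Correlations used 100000 permutations, two-sided. Each mouse was 1 replicate. DESeq2 1.42.0, size factors, no filter, covariates, subsets of mice and leaving out each mouse were the other alternatives. The steps were tested on simulated counts. Python 3.11.15, numpy 2.4.6, scipy 1.17.1 and pandas 2.3.3 computed the correlations.

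Named were the 10 members, listed genes with an unadjusted p under 0.05 in a genotype comparison or the highest or lowest estimate of their list, and the 10 non-members most like the member mean, of which 1 is not reported here. Depth limited Ier2, Egr2 and Fos, whose values rest on few reads, and PCR duplicates were not removed by molecular identifiers, so that stated counting errors are lower bounds.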

Additional observations from a re-analysis of the deposited data

Results flagged for a closer look

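Low values of single mice stood apart in 4 of 40 tests. Each divided the gap of the highest or lowest mouse of a line and genotype group to its nearest neighbour by the group range. Gap and range were taken on log2 CPM, so the shares do not follow from the CPM printed beside them. Chance alone gives about 1 in 20. Egr1 in CYFIP1 OE 1 had a share of 0.729, at 41.6 CPM against 209 in the next mouse of the group. Egr4 in the same mouse had 0.677, at 19.5 against 47.7 CPM, and Nr4a1 had 0.547, at 2.51 against 8.701 CPM. Nr4a1 in CYFIP1 OE 4, in the line labelled 1, had 0.656, at 3.45 against 12.2 CPM.

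Among the members and all listed genes, 12 of 85 tested had an unadjusted p under 0.05 of the edgeR interaction between line and genotype, against 8.1% of all genes. These were 1 of 10 members, 3 of 6 family genes, 3 of 31 other rapid-response genes, 1 of 15 delayed genes and 4 of 23 regulators. Of the 12, 7 had a positive difference, line 3 minus line 1, and 5 a negative one. All 4 regulators were positive, and the 3 family genes were negative. The 9 given here are members or were named for a low p or an extreme estimate in a genotype comparison, so their number is a description, and none passed after adjustment (adjusted p of 0.53 to 0.57). As the log2 fold change in the line labelled 3 minus that in the line labelled 1, Fos had -1.24 (edgeR p = 0.0083), Jun -1.01 (edgeR p = 0.0082), Fosl2 -0.71 (edgeR p = 0.022) and Nr4a3 -1.50 (edgeR p = 0.0030), all toward lower values in CYFIP1 OE mice of the line labelled 3. Ptgs2 had -1.75 (edgeR p = 0.027). With the opposite sign, Rps6ka5 had 1.18 (edgeR p = 0.0050), Inhba 1.39 (edgeR p = 0.025), Ier5l 0.88 (edgeR p = 0.024) and Sik1 0.75 (edgeR p = 0.012).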

How the results depend on the processing

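Over both lines 0 members were called, and 1 was with 5 surrogate variables (Arc, -0.34, edgeR p = 0.0013, adjusted p = 0.56). In the line labelled 3 Fos was the 1 member called. The count was 0 with the striatal sum as a covariate, with the pan-neuronal sum (added after seeing the data) and with 5 surrogate variables. It was also 0 with the line fitted alone, and with its name prefixes as a block (added after seeing the data). The estimate of Fos lay between -1.00 and -0.63 over the alternatives other than leaving out each mouse in turn. Leaving out each mouse in turn gave counts of 0 to 1 in that line, with Fos under 0.005 in 22 of 31 fits (-1.20 to -0.80, edgeR p = 3.62e-04 to 0.0126), and 0 to 1 for the interaction, with Fos under it in 3 of 31. Without a filter 1 member, Egr1, was called for name prefix, in a fit whose share of all genes called is not given here. Of 49 counts under alternatives, that for name prefix without a filter among them, 42 were alike. Called pairs numbered 22, and 6 in line 1 alone, 15 in line 3 alone, 1 among WT and 10 among CYFIP1 OE animals. Fos lost its call without WT 3, 13, 15 or 16 or CYFIP1 OE 3, 10, 13, 14 or 15, and gained it for the interaction without CYFIP1 OE 4, 9 or 12.

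Signs turned for Egr1 and for members in the line labelled 1. Egr1 over both lines was 0.069 with age as a covariate, 0.078 without mice aged 77 days and 0.050 without CYFIP1 OE 1, and in the line labelled 3 it was -0.27 with the striatal sum and -0.29 with prefix as a block. In the line labelled 1, Egr1 was 0.011 without mice aged 77 days and, with the striatal sum, 0.19, as Junb was 0.044 and Egr4 0.0029. With the pan-neuronal sum there, Fos was -0.069, Fosb -0.0053, Egr2 -0.047, Nr4a1 -0.020 and Ier2 -0.15, and with 5 surrogate variables Fos was -0.34, Fosb -0.18, Egr2 -0.0059, Nr4a1 -0.014 and Ier2 -0.26. The r of Fos with Egr1 was 0.18 in line 1, 0.00029 without CYFIP1 OE 1 and 0.28 with marker sums removed. Why these values changed was not tested. Depth limits Ier2, with a median of 13 reads, and Egr2 and Fos, with 42 and 44. It also limits named genes of the other lists, such as Gpr3, Ccn1 and Ptgs2, with means of 1.08, 1.14 and 2.02 CPM. With a median SE of 0.29 in the line labelled 3, small changes could not be detected.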
